A study of Mus musculus with 8 samples.

Results

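The Trim30 cluster is a run of related TRIM genes on mouse chromosome 7, here Trim30a, Trim30b, Trim30c, Trim30d, Trim12a, Trim12c and Trim34a. The 7 members were chosen by name as the Trim30, Trim12 and Trim34 genes of that cluster, with the levels and genotype differences in these data already known, and their symbols were matched to the Ensembl IDs of 2 deposited tables that together list 24375 genes. Of the 7, 6 had values in both tables, and 4 (Trim30a, Trim30d, Trim12c and Trim34a) had a mean high enough to carry an adjusted p in both. The expression of Trim12a was not analysed here, and it is described by its sequence only.

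The study profiled liver RNA by sequencing from mice lacking Cpeb4 (Cpeb4 KO), set against wild-type mice. CPEB4 is an RNA-binding protein that recognises short U-rich elements in 3′ untranslated regions and regulates poly(A) tails and translation. RNA came either from endoplasmic reticulum (ER) purified from the livers of mice fasted overnight or from flash-frozen liver as total RNA, and no source used here gives the feeding state of the total-liver mice. The 8 libraries form 4 groups of 2: KO ER, WT ER, KO total liver and WT total liver. The labels name no Cre driver, allele, strain, sex or age, and leave unsaid whether the libraries of a group are from different mice. P-values therefore reflect variation among libraries only, which could be technical.

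Each of the 2 deposited tables compares genotypes once, and neither names its libraries or its RNA preparation. They are called here by their number of rows, the smaller table with 21201 genes and the larger table with 23634. The files do not write the direction of the fold change; the direction used here rests on reading Cpeb4 as lower in KO libraries, where the authors' deposited tables give it a log2 fold change of -1.10 ± 0.13 (SE) in the smaller and -1.16 ± 0.11 in the larger. Reads per library were recovered from the deposited means, because each mean is a sum of whole reads weighted by 4 library scale factors. A library's genotype follows from the sign of the deposited fold change of genes seen in that library alone, and the letters A and B only name libraries within a genotype. Cpeb4 had 193 and 225 normalised reads in the KO libraries of the smaller table against 689 and 634 in its WT libraries, and 506 and 580 in the KO libraries of the larger table against 1511 and 1657 in its WT libraries. These came from a search limited to ratios with KO below WT, so their direction was set by the search. Relative depth, the scale factor by which reads were divided, ran from 0.839 to 1.64 over the libraries of the smaller table and from 0.717 to 1.26 over those of the larger. Hepatocyte markers were present at high level in both tables, with adjusted p-values for 8 of 8 list genes and summed mean normalised counts of 1175554 in the smaller and 2072819 in the larger.

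TRIM proteins carry a RING domain with ubiquitin ligase activity, a B-box and a coiled coil, and many also end in a PRYSPRY domain that binds their targets. In mice, Trim30a is induced by interferons and by Toll-like receptor ligands, and its protein restrains NF-kB signalling by promoting the loss of the adaptors TAB2 and TAB3. Trim12a and Trim12c are mouse relatives of the primate antiretroviral factor TRIM5, and Trim34a is the relative of human TRIM34, another interferon-induced gene of the same family. Trim30b, Trim30c and Trim30d are relatives of Trim30a whose roles are less well described.

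The members span 263 kb, chr7:104244457-104507849 (GRCm38, GENCODE M21). Trim34a lies on the plus strand at chr7:104244457-104262234, and the other 6 lie on the minus strand. In order along the chromosome these are Trim12a at chr7:104299894-104315466, Trim12c at chr7:104338754-104353362, Trim30b at chr7:104355382-104369884, Trim30c at chr7:104382065-104400837, Trim30a at chr7:104409025-104465193 and Trim30d at chr7:104470014-104507849. Trim6, a TRIM gene that is not a member, lies next to Trim34a on the plus strand. The tables list the measured members as ENSMUSG00000030921 (Trim30a), ENSMUSG00000052749 (Trim30b), ENSMUSG00000078616 (Trim30c), ENSMUSG00000057596 (Trim30d), ENSMUSG00000057143 (Trim12c) and ENSMUSG00000056144 (Trim34a). The gene map draws this order to scale.

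**Figure D1:**
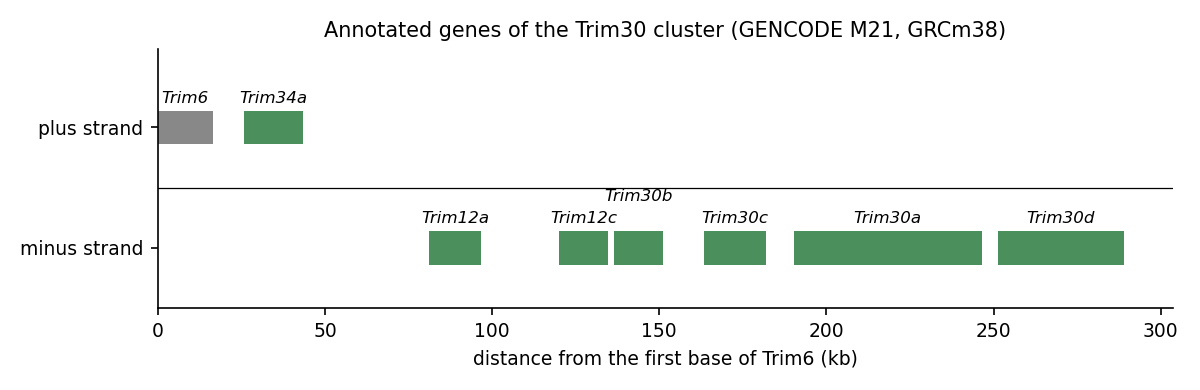
Annotated extent of the 7 cluster members (green) and of the neighbouring Trim6 (grey), drawn by strand against distance in kb from the first base of Trim6. Trim34a and Trim6 sit on the plus strand and the other 6 members on the minus strand, with Trim30a and Trim30d side by side at the right end of a 289 kb stretch.

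The start regions are shown because interferons act on many target genes through the interferon-stimulated response element (ISRE), and because the Trim30a and Trim30d copies can be compared there. The 250 bases before the annotated Trim30a start, from RefSeq on GRCm38.p6, read as follows, with the 10 bases that match the ISRE core in capitals.
Trim30a, chr7:104465194-104465443, minus strand: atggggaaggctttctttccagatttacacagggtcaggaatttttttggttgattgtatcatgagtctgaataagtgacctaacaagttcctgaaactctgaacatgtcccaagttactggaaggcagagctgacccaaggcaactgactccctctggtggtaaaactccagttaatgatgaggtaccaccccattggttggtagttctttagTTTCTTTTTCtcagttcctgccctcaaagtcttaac

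The ISRE core searched was GAAA, any 2 bases and GAAA on either strand, which reads TTTC, any 2 bases and TTTC on the gene strand here, in windows of 250 bases before and 50 after each RefSeq start. It occurred in 3.44% of 32851 such windows and in the windows of 20 of 33 interferon-response genes. The best match to the TTTC form found in each window is given below with 10 bases on each side. The 10 matched positions are in capitals and the gene strand is written 5′ to 3′. The search for this best match left out the GAAA form and the bases furthest before each start, where a nearer stretch would not be seen.
Trim30a, chr7:104465210-104465239, minus strand: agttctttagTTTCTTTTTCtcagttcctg
Trim30d, chr7:104507871-104507900, minus strand: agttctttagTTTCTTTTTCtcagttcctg
Trim30c, chr7:104400896-104400925, minus strand: agttctgtggTTCCTTTTTCtcagttccac
Trim12a, chr7:104315466-104315495, minus strand: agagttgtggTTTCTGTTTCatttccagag
Trim12c, chr7:104353359-104353388, minus strand: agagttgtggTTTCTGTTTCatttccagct
Trim34a, chr7:104244457-104244486, plus strand: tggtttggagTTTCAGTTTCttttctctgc
Trim30b, chr7:104358757-104358786, minus strand: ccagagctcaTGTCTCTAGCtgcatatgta

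The Trim30a and Trim30d stretches were the same over all 30 bases, and their full windows were identical at 93.9% of 294 aligned columns. Trim30a has another annotated start further into the gene, and that window held the same core. Trim12a, Trim12c and Trim34a also held the core. Trim30c differed from it at 1 position (T3C, counted from 1 at the first T of the core as read on the gene strand, with the core's base first). The nearest stretch found in Trim30b differed at 3. The Trim30b window, chr7:104358597-104358896, lies inside the GENCODE extent of the gene and not at its 5′ end. A match is a description of letters and not of binding, and a window without a match says only that these letters are not there. An NF-kB core, GGGA, any 2 bases and TTCC on either strand, occurred in none of the 7 members' windows, against 1.47% of all windows. The palindromic STAT core TTCNNNGAA occurred in that of Trim30c and of no other member, against 8.30% of all windows.

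The members differ in how far a short read can tell them from other genes, which bears on their counts because no source used here states how multi-mapped reads were treated. Of the 31-base words in the annotated Trim30a transcripts, 11.9% also occur in another gene, most of them in Trim30d (348 of 4080 words). For Trim30d the share was 11.9% as well, for Trim30c 5.69% and for Trim30b 4.60%. Trim12c shared 48.1% of its words, mainly with Trim5, and Trim34a shared 68.5%, mainly with Trim34b, so counts of these 2 genes are uncertain. Over coding sequences, with gaps counted as differences, Trim30a was identical to Trim30d at 90.0% of aligned bases, to Trim30c at 80.4%, to Trim12c at 71.7%, to Trim34a at 59.1%, to Trim12a at 45.6% and to Trim30b at 36.1%. The last 2 are set against shorter coding sequences, of 894 bases in Trim12a and 612 in Trim30b, beside 1491 in Trim30a.

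CPEB proteins bind U-rich elements in 3′ untranslated regions, and 2 spellings of the element, TTTTAT and TTTTAAT, were counted in the annotated region of 6 members, Trim30c not among them. Trim30a held 2 in 2052 bases, 0.975 per kb, Trim30d held 3 (1.48 per kb), Trim12c 2 (0.990 per kb), Trim30b 5 (1.47 per kb) and Trim12a 1 (2.04 per kb). Trim34a held none in 784 bases. Over 21018 genes, 56.7% held at least 1 and the median was 0.656 per kb; of 3093 genes with a region about as long as that of Trim30a, 84.7% held an element and 44.8% held fewer per kb.

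Trim30a stood apart from the other members in level. The authors' deposited tables give it a mean normalised count of 5222 in the smaller table and 254 in the larger. Its level passed that of 91.2% of tested genes in the smaller table and of 38.1% in the larger. The ratio of the means was 20.6, whereas the ratios of the other 5 measured members ran from 0.244 to 0.743. Relative to the median of 11604 genes tested in both tables, the log2 ratio of Trim30a was 4.62, and 5 genes had a higher one. All of those 5 share over 25% of their words with another gene; of the 9810 genes with at most 25% shared words, 0 had a higher ratio than Trim30a, and their 5th to 95th percentiles lay between -1.16 and 1.06. The 4 libraries of the smaller table held 3498 to 7884 normalised reads of Trim30a, against 229 to 301 in the 4 of the larger, without overlap. The tables were normalised separately, and a difference between RNA preparations cannot be told apart from one between tables.

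The other members were below the median gene in this ratio. On the same log2 scale relative to the median, Trim30d was at -0.17, Trim30b at -0.47, Trim34a at -0.72, Trim30c at -1.66 and Trim12c at -1.78. Trim30c and Trim12c were thus below the 5th percentile of the 11604 genes, -1.57. Trim30c is not itself among these genes, and it rested on 11 reads in the smaller table and 40 in the larger. Trim12c was above the 5th percentile of the 1764 genes with over 25% shared words, -3.30. The neighbouring Trim6, not a member, was at -3.28, with mean normalised counts of 12.1 in the smaller and 140 in the larger table. Per kb of exon, the mean normalised counts in the smaller table were 1270 for Trim30a, 65.7 for Trim30d, 53.2 for Trim34a, 18.4 for Trim12c, 1.55 for Trim30c and 1.16 for Trim30b, from the authors' deposited table divided by annotated exon length. In the larger table the order was different, with Trim34a at 105 per kb, Trim30d at 88.4, Trim12c at 75.5, Trim30a at 61.7, Trim30c at 5.81 and Trim30b at 1.92. Trim30a led the cluster in the smaller table and was below Trim34a, Trim30d and Trim12c in the larger, by this length-scaled level. Over single libraries of the smaller table, Trim30a ran from 851 to 1918 per kb, above every library of the other members. Neighbours in the order overlapped between Trim30d and Trim34a and between Trim30c and Trim30b in that table, and Trim12c stood between these pairs at 15.4 to 21.5 per kb. Over single libraries of the larger table, Trim34a (84.6 to 124 per kb), Trim30d (76.8 to 108), Trim12c (61.3 to 89.1) and Trim30a (55.7 to 73.2) each overlapped with the next. Trim30b and Trim30c had lower means than any gene that carried an adjusted p, in both tables.

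The genotype differences are given as descriptions, since the members were chosen with them known. In the smaller table, Trim30a had 9507 and 6615 reads in the 2 KO libraries against 3239 and 2934 in the 2 WT libraries. A mean this high has more than 1 solution in whole reads. The search was limited to ratios with KO above WT, in a range set from the deposited fold change, and found 31. The 1 of these that also gives the deposited fold change was taken, so the direction of the means was set by the search. Divided by the libraries' scale factors, these are 5780 and 7884 normalised reads in KO against 3725 and 3498 in WT. Both KO libraries were above both WT libraries, and the mean was 6832 in KO against 3611 in WT, 1.89-fold higher in KO. Leaving out any 1 library put the log2 ratio of means, 0.92 with all 4, between 0.68 (without KO library B) and 1.13 (without KO library A). The authors' deposited table gives a moderated log2 fold change, shrunk toward 0, of 0.69 ± 0.12 (SE) with an adjusted p of 4.11e-05 (DESeq2). Trim30a was the only member called at an adjusted p below 0.05 in that table, 1 of 4 with an adjusted p, beside 0.163% of 11661 tested genes called higher in KO and 0.266% called in either direction. Nothing is read from that share, because the contrast was known when the members were chosen.

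Trim30a had 292 and 207 reads in the KO libraries against 313 and 216 in the WT libraries of the larger table, that is 236 and 229 normalised reads in KO against 249 and 301 in WT. Both KO libraries were below both WT libraries, by a log2 ratio of means of -0.24 that lay between -0.37 and -0.10 without any 1 library; without WT library B it was -0.10. The authors' deposited table gives -0.13 ± 0.12 (SE) with an adjusted p of 1.000. None of the 4 tested members was called there by DESeq2 and 2 had an unadjusted p below 0.05. Of 14180 tested genes, 0.296% were called, 0.0917% higher in KO and 0.205% lower, and 3.62% had an unadjusted p below 0.05. The sign of the Trim30a difference was thus opposite in the 2 tables. The fold change of the smaller table minus that of the larger was 0.82 ± 0.17 on the moderated log2 scale, which was rank 2 of 11604 genes by the size of its z value, where 0.0172% of genes were called.

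**Figure D2:**
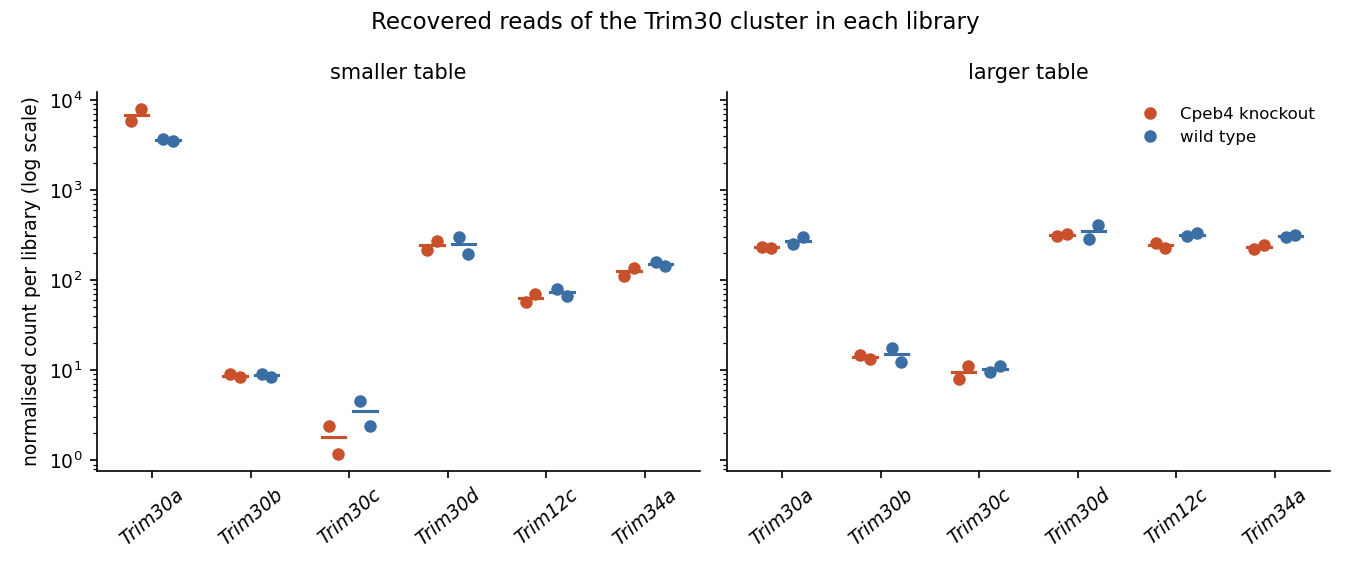
Normalised reads of the 6 measured members in each library of the smaller (left) and larger (right) table, on a log scale; points are libraries, KO left of wild type, and bars are means of 2 libraries. Trim30a reaches 5780 and 7884 in KO against 3725 and 3498 in wild type in the smaller table, while its 4 libraries lie between 229 and 301 in the larger.

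Trim30d, the neighbouring copy with 90.0% coding identity, had mean normalised counts of 247 in the smaller and 332 in the larger of the authors' deposited tables. It had 218 and 272 normalised reads in KO against 304 and 194 in WT in the smaller table, and the genotypes overlapped. In the larger it had 308 and 325 in KO against 289 and 407 in WT, again with overlap. The authors' deposited tables give log2 fold changes of -0.02 ± 0.14 (SE) in the smaller table and -0.07 ± 0.12 in the larger. Its sign changed when 1 library was left out in either table, with ranges of -0.31 to 0.33 in the smaller table and -0.36 to 0.13 in the larger.

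Trim34a and Trim12c had lower mean reads in KO in both tables, by amounts that did not pass the adjusted threshold in the authors' deposited tables. Trim34a had 112 and 137 normalised reads in KO against 160 and 142 in WT in the smaller table, without overlap. The larger table had 219 and 245 in KO against 300 and 321 in WT, again without overlap. The authors' deposited tables give it -0.13 ± 0.14 (SE) in the smaller and -0.25 ± 0.12 in the larger, the larger with an unadjusted p of 0.0376. Trim12c had 57.8 and 70.3 normalised reads in KO against 80.5 and 66.8 in WT in the smaller table, where the genotypes overlapped. The larger table had 258 and 229 in KO against 308 and 333 in WT, without overlap. The authors' deposited tables give Trim12c -0.07 ± 0.13 (SE) in the smaller and -0.24 ± 0.12 in the larger, the larger with an unadjusted p of 0.0497.

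In the larger table, 3 of the 6 measured members (Trim30a, Trim12c and Trim34a) had both KO libraries below both WT libraries, and 0 had both above. Of 6277 genes with a mean up to 350 in that table, 36.6% did not overlap between genotypes, 19.1% with KO lower and 17.4% with KO higher. In the smaller table, Trim34a was the only member with KO lower and no overlap, beside 18.3% of 4846 genes with a mean up to 350; 36.9% of those genes did not overlap in either direction, 18.6% with KO higher. Trim30a, whose mean is above that limit, was the only one with KO higher and no overlap.

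Trim30b and Trim30c had few reads. Trim30b had 15 and 7 reads in KO against 8 and 7 in WT in the smaller table, and 18 and 12 in KO against 22 and 9 in WT in the larger. Trim30c had 4 and 1 reads in KO against 4 and 2 in WT in the smaller table, and 10 and 10 in KO against 12 and 8 in WT in the larger. The genotypes overlapped for both genes in both tables. Neither carried an adjusted p.

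**Figure D3:**
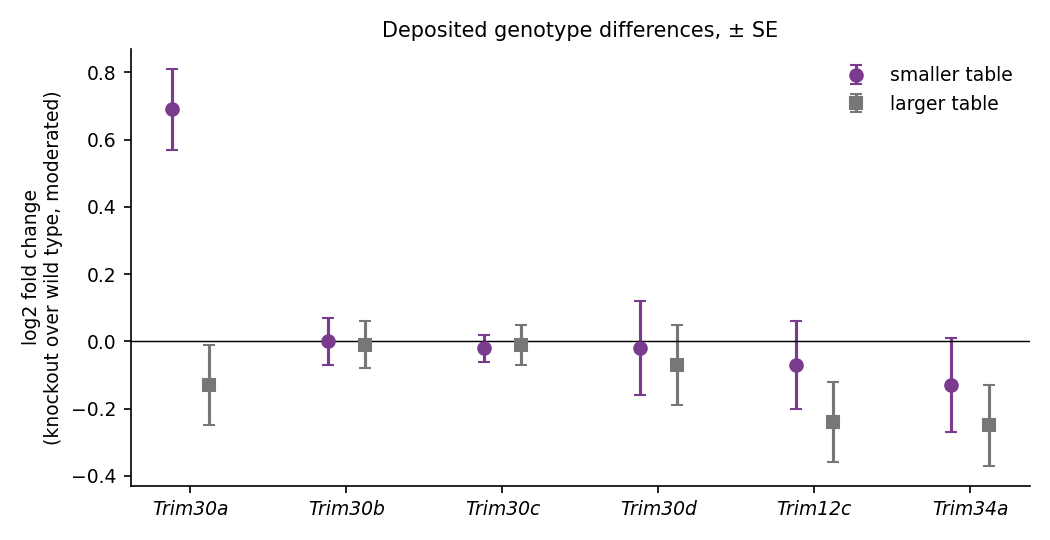
Deposited moderated log2 fold changes of the 6 measured members, KO over wild type, with bars of ± 1 SE, for the smaller (circles) and larger (squares) table. Trim30a is at 0.69 in the smaller table and -0.13 in the larger, and the other 5 members lie between -0.25 and 0.00 in both.

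No tested neighbour of the cluster was called. Within 500 kb of either end, 92 other genes are annotated, 52 of them olfactory receptors, and 5 had an adjusted p in both tables. By DESeq2, 0 of these were called, and 2 in the smaller and 2 in the larger had an unadjusted p below 0.05, beside 4.11% and 3.62% of all tested genes. The 5 are the processed pseudogenes Dnajc19-ps, Gm4887 and Gm5900 and the beta-globin genes Hbb-bt and Hbb-bs. From 51.8% (Gm4887) to 82.0% (Gm5900) of their words also occur in another gene, so their counts are uncertain. The beta-globin genes Hbb-bt and Hbb-bs were both below 0 in the authors' deposited tables, Hbb-bt at -0.39 ± 0.12 (SE) in the smaller and -0.30 ± 0.11 in the larger. Hbb-bs was at -0.36 ± 0.12 in the smaller and -0.29 ± 0.10 in the larger of the authors' deposited tables. Trim6, beside Trim34a, had 15.2 and 14.3 normalised reads in KO against 8.05 and 10.7 in WT in the smaller table. In the larger table Trim6 had 159 and 144 in KO against 134 and 123 in WT, and its fold change in the authors' deposited table was 0.11 ± 0.12.

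The genes whose pair of fold changes lay nearest to that of Trim30a, by Euclidean distance over the 2 tables, were Pde1c, Fmn2, Plcxd3, Nkain2 and Tlk1. Pde1c, a cyclic nucleotide phosphodiesterase gene, was at 0.66 in the smaller and -0.05 in the larger of the authors' deposited tables, a distance of 0.09. It had 469 and 473 normalised reads in KO against 243 and 218 in WT in the smaller table. These came from a search limited to ratios with KO above WT, so their direction was set by the search. Fmn2, a formin gene, was at 0.75 and 0.16 in the authors' deposited tables, smaller and larger, and Nkain2 at 0.52 and 0.15. Their mean ratios, smaller over larger, were 7.09 for Pde1c, 5.30 for Nkain2, 4.54 for Plcxd3, 1.02 for Fmn2 and 0.894 for Tlk1, against 20.6 for Trim30a. These 5 were picked by likeness to Trim30a, so their values are a description.

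**Figure D4:**
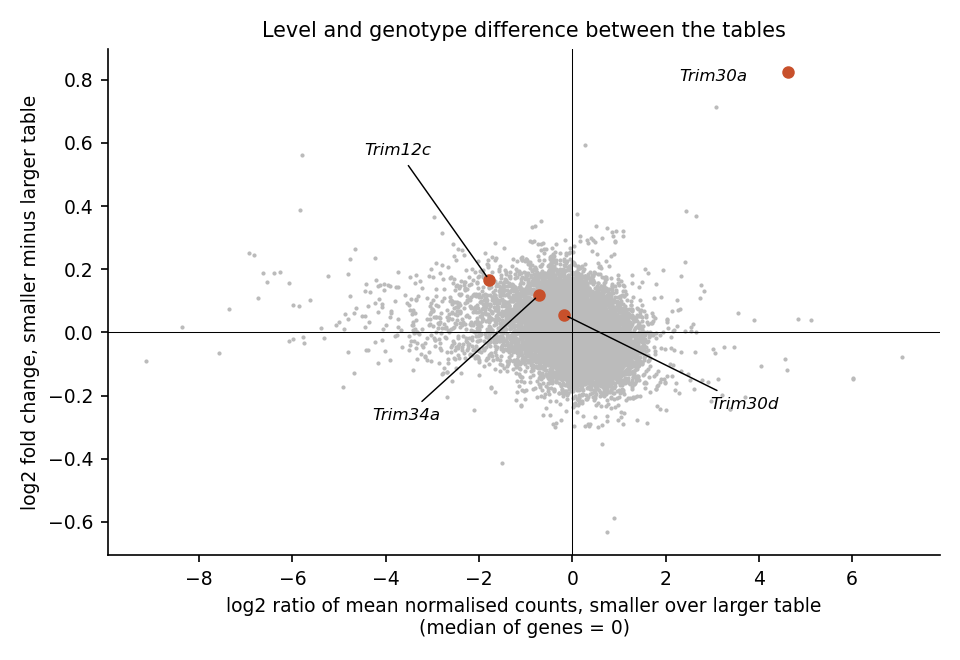
Genes tested in both tables, by log2 ratio of mean normalised count, smaller over larger, relative to the median (x), and by log2 fold change of the smaller minus the larger table (y). Trim30a lies at 4.62 and 0.82, away from the mass of genes, while Trim12c lies in the left tail at -1.78, and Trim34a at -0.72 and Trim30d at -0.17 lie nearer the centre.

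Trim30a is an interferon-response gene by background knowledge, and its value in the smaller table lay outside the range of that group. Of 44 interferon-response genes with an adjusted p in the smaller table, 43 had a log2 fold change below 0 and 1 above it, with a median of -0.24 beside 0.00 over all tested genes. All 44 were below 0 in the larger table, with a median of -0.20 beside 0.00. Genes called lower were Zbp1, a nucleic acid sensor, and Bst2, the tethering factor tetherin, in the smaller table, and Zbp1 and Iigp1, an interferon-induced GTPase, in the larger, 2 of 44 in each, beside 0.103% and 0.205% of all tested genes called lower. An unadjusted p below 0.05 was found for 40.9% of the list in the smaller and 43.2% in the larger table, beside 4.11% and 3.62% of all tested genes. Zbp1 was at -0.59 ± 0.13 (SE) in the smaller and -0.57 ± 0.12 in the larger of the authors' deposited tables. The list's highest value in the smaller table was 0.04 ± 0.13, for Ddx58 in the authors' deposited table, below the 0.69 of Trim30a. Trim12c and Trim34a lay on the same side of 0 as the list in both tables.

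**Figure D5:**
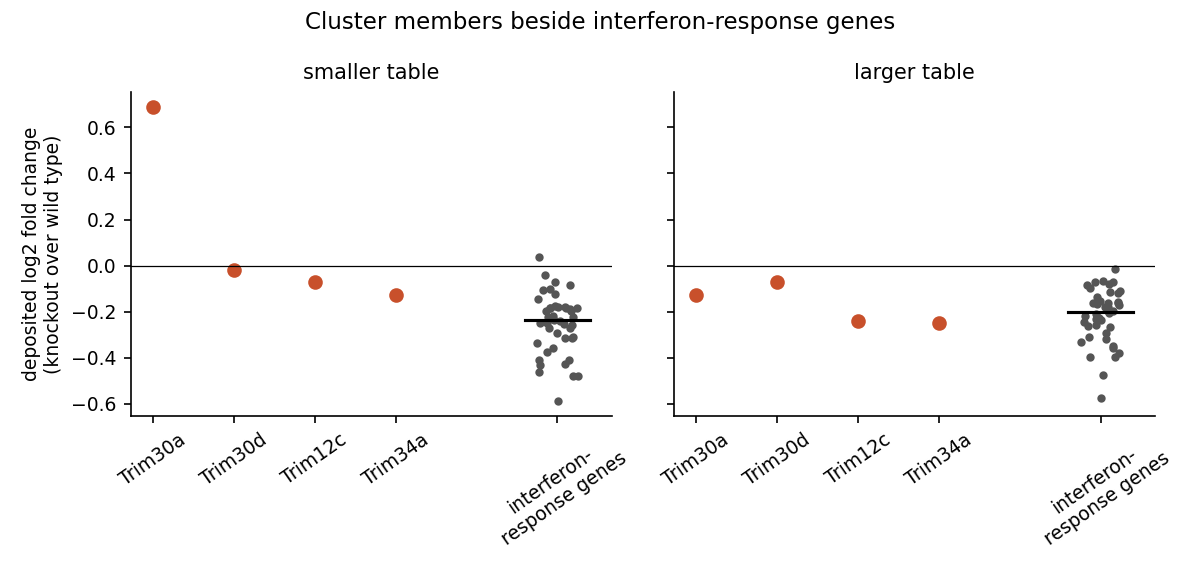
Deposited log2 fold changes, KO over wild type, of the 4 tested members (orange) and of the 44 tested interferon-response genes (grey, horizontal jitter only, bar at the median) in the smaller (left) and larger (right) table. Trim30a at 0.69 stands above every list gene in the smaller table, whose highest is 0.04, and at -0.13 falls within their range in the larger.

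Regulators of interferon genes, which include the STAT and IRF factors, had log2 fold changes above 0 for 6 and below 0 for 9 in the smaller table, with a median of -0.02. The larger table had 3 above and 13 below 0, with a median of -0.06, beside 7028 above and 7152 below 0 and a median of 0.00 over all tested genes. None was called by DESeq2, with an unadjusted p below 0.05 for 6.67% in the smaller and 12.5% in the larger table, beside 4.11% and 3.62% of all tested genes. Irf9, a subunit of the factor that binds the ISRE, was the lowest in both, at -0.22 ± 0.12 (SE) in the smaller and -0.26 ± 0.10 in the larger of the authors' deposited tables. Socs3 was the highest in both, at 0.29 ± 0.14 in the smaller and 0.24 ± 0.12 in the larger. In the smaller table the unadjusted p (DESeq2) was 0.0383 for Socs3 and 0.0795 for Irf9. In the larger it was 0.0446 for Socs3 and 0.0100 for Irf9. Genes of Toll-like receptor and NF-kB signalling, the pathway in which TRIM30A acts, had medians of 0.01 in the smaller and 0.00 in the larger table, and none was called among 26 and 30 tested, with an unadjusted p below 0.05 for 1 in each. Tab2, whose protein is a target of TRIM30A in mice, had the highest value of that list, at 0.28 ± 0.12 in the smaller and 0.20 ± 0.10 in the larger of the authors' deposited tables. Trim genes outside the cluster had medians of -0.03 in both tables, and 0 of 25 and 0 of 30 tested were called by DESeq2 or had an unadjusted p below 0.05.

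The samples are bulk tissue or a fraction of it, so fewer cells of a type and less RNA per cell cannot be told apart. Kupffer cell and macrophage markers were mostly below 0, 15 of 16 in the smaller table with a median of -0.12 and 14 of 16 in the larger with a median of -0.09, and none had a mean under 1. None of the 16 was called by DESeq2, with an unadjusted p below 0.05 for 3 in the smaller and 1 in the larger table, beside 4.11% and 3.62% of all tested genes. These did not all go the same way. In the smaller table Cd163 was the highest, at 0.30 ± 0.14 (unadjusted p 0.0374, DESeq2), and C1qc the lowest, at -0.29 ± 0.13 (0.0273). In the larger table Cd163 was again the highest, at 0.19 ± 0.12, and Slc40a1 the lowest, at -0.26 ± 0.11. Their summed mean was 9181 in the smaller table and 13832 in the larger. Markers of T and NK cells summed to 160 in the smaller and 237 in the larger table, those of B and plasma cells to 173 and 177, and those of neutrophils to 113 and 49.8. Of 9 neutrophil markers, 5 had a mean below 1 or no value in the smaller table and 4 in the larger. Endothelial markers had medians of 0.03 in the smaller and -0.07 in the larger table, with 7 of 8 tested in each. Cholangiocyte markers had -0.05 in both, with 3 of 6 tested. Dendritic cell markers had 0.01 and 0.02, with only 3 and 4 of 9 tested. Of these, Bst2, also on the interferon-response list, was called lower in the smaller table, at -0.43 ± 0.11, beside 0.103% of all tested genes. It was at -0.29 ± 0.09 in the larger, not called. Hepatocyte markers had medians of 0.02 and 0.05, with 5 above and 3 below 0 in each table. The unadjusted p (DESeq2) was below 0.05 for 3 in the smaller and 2 in the larger, beside 4.11% and 3.62% of tested genes. Ttr was the lowest in both, at -0.24 ± 0.11 (SE) in the smaller and -0.19 ± 0.08 in the larger table. Tat, the tyrosine aminotransferase gene, was called higher in both, at 0.72 ± 0.12 (SE) in the smaller and 0.70 ± 0.11 in the larger of the authors' deposited tables. It was 1 of 8 tested hepatocyte markers in each, beside 0.163% and 0.0917% of all tested genes called higher. The part of any of these cell types in the Trim30a difference was not tested.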

How the data were processed

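Liver RNA of 8 libraries was compared in 2 deposited tables. Per the file headers, the authors deposited for each gene the mean normalised count (a signal averaged over libraries, not per length), a moderated log2 fold change with its SE, a Wald score, a p-value and an adjusted p-value; adjusted p-values are missing for genes of low mean. STAR 2.3.0e, DESeq2 1.6.3 and mm10 are named, without a role, per the submitters' processing notes; no source used here gives the annotation, counting tool, strand or treatment of multi-mapped reads. Members and lists were chosen with earlier results of these data known. IDs with a gene name numbered 21080 of 21201 rows in the smaller table and 23484 of 23634 in the larger.

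Whole reads were recovered from the means. A gene seen in 1 library by 1 read has a mean that gives that library's scale factor, and the sign of its fold change gives the library's genotype side; no library is tied to a sample, and A and B are only names. For means up to 350, all 4849 genes of the smaller table and 6279 of the larger had exactly 1 solution at a relative tolerance of 1e-14, and the sign of the ratio was that of the deposited fold change in 4803 and 6198. For Trim30a in the smaller table, only ratios in a range set from the deposited fold change were searched, with KO above WT. This gave 31 solutions, of which 1 also gave the deposited fold change when the moderated model was refitted. Pde1c in the smaller table and Cpeb4 in both were searched likewise, on the side of their deposited fold change, with 1 solution each. Moderation shrinks differences: the deposited value was a median 0.508 of the unmoderated one in the smaller table and 0.477 in the larger. These medians cover 1004 and 766 genes with means from 100 to 350 and a minimum size of ratio. Trim30a in the smaller table has a higher mean and was shrunk less, to 0.69 from 0.92. The tables were compared by a two-sided z test on the deposited fold changes, Benjamini-Hochberg adjusted over 11604 genes, with the tables treated as independent. Recovery and z test were tested on simulated data, and no outcome is given here. The z values of the deposited data had an SD of 0.535. Sequences are from RefSeq (GRCm38.p6) and GENCODE M21. Named genes were the members, neighbours within 500 kb, the 5 genes nearest to Trim30a, called and extreme list genes, and Cpeb4. Intervals are SEs over 2 libraries per genotype and table. Per-sample columns not used numbered 0. Python 3.11.15, numpy 2.4.6, pandas 2.3.3, scipy 1.17.1 and biopython 1.88 were used.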

Additional observations from a re-analysis of the deposited data

Results flagged for a closer look

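Trim30a was the member whose genotype difference departed between the tables by a test of the difference itself. Its deposited log2 fold change in the smaller table minus that in the larger was 0.82 ± 0.17 (SE), with an adjusted p of 0.0104 over 11604 genes (z test, Benjamini-Hochberg). It was higher in 2 of 2 KO libraries than in both WT libraries in the smaller table, and lower in 2 of 2 in the larger. The gene was chosen with these values known, so the test is a description.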

How the results depend on the processing

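The count of genes that differ between the tables was 2, and became 10 with z values divided by their SD of 0.535, and 1 with a mean of at least 100 in both tables. The adjusted p of Trim30a (z test) was 0.0104, and became 2.65e-15 with the divided z values and 0.0170 with the higher mean. It was chosen with this contrast known and each version uses the same values, so these are a description and not further evidence. Its level ratio on the log2 scale was 4.62 relative to the median of genes and 4.38 when scaled to the tables' summed means; the median log2 ratio over all genes was -0.25. In all, 79 of 102 alternative values stayed within the spread or on their side of the threshold and 23 moved, 14 of them shares of words at 25 or 50 bases. The members' own calls were the same under each alternative that kept the member. Trim12c and Trim34a dropped out where genes sharing over 25% of words were left out. Trim12c also dropped out where a mean of at least 100 was required in the smaller table or in both. Leaving out each library, an alternative chosen after seeing the data, put the Trim30a log2 ratio between 0.68 and 1.13 in the smaller table and between -0.37 and -0.10 in the larger; the sign of the uncalled Trim30d ratio changed in both tables. Counts of called genes without each library were not run, because reads were recovered only for part of the genes. No paired analysis was possible because the tables name no samples, so the recovered libraries carry no replicate numbers. Trim30b and Trim30c rested on 11 to 61 reads per table, and what difference could be detected at these counts was not tested.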
